A study of Mus musculus with 19 samples.

Results

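A set of 9 genes of receptors for transmitters and peptides on astrocytes were followed across sorted cells of the mouse hippocampus. They were *Adra1a*, *Adra2a*, *Adrb1*, *Grm3*, *Grm5*, *Gabbr1*, *Gabbr2*, *Ednrb* and *Ntsr2*, chosen by symbol, and each of the 9 was found among the 60567 genes of the table. Their mRNA was read by RNAseq in cells that had been isolated by FACS from the hippocampus of male C57bl6 mice aged 9 months. Every mouse had received an AAV2 of serotype 9 in the hippocampus, in which gfaABC1D, an artificial version of the GFAP promoter, limits the transgene to astrocytes. WT-GFP mice were littermates without the APP/PS1dE9 transgenes and received the GFP vector alone, and gave 7 samples of GFP+ astrocytes. APP-GFP mice carry the APP/PS1dE9 transgenes, a model of amyloid deposition in Alzheimer's disease, received the same GFP vector, and gave 4 samples. APP-SOCS3 mice carry the same transgenes, received a vector for SOCS3, an inhibitor of the JAK2-STAT3 pathway, together with the GFP vector at an equal total dose, and gave 5 samples. The remaining 3 samples were GFP- cells of WT-GFP mice. The study describes them as a mixture of microglia, neurons, oligodendrocyte precursor cells and astrocytes that the vector did not reach, and markers of vascular cells were read there too. No group of wild type mice with SOCS3 was analysed here, so the effect of SOCS3 could be read only in APP mice. The study counts its samples as mice, but also describes sorting the left and right hippocampus of a mouse apart, and the labels do not say which samples share a mouse, so *p* values measure the spread between these samples.

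All 9 receptors are coupled to G proteins. Astrocytes use them to sense noradrenaline released from fibres of the locus coeruleus, glutamate and GABA that spill over from synapses, and peptides such as endothelins and neurotensin. Receptors coupled mainly to Gq (*Adra1a*, *Grm5*, *Ednrb*) release calcium from internal stores, those coupled to Gi (*Adra2a*, *Grm3*, the GABA-B pair *Gabbr1* and *Gabbr2*) lower cyclic AMP, and *Adrb1*, coupled to Gs, raises it. In the adult hippocampus *Grm3* is a typical astrocyte receptor, whereas *Grm5* is known to be high in young astrocytes and low in mature ones.

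Libraries held 19331876 to 32621917 reads on genes, and values, called levels here, are counts scaled by the size factor of each sample, so that 1 read was worth 0.756 to 1.18. *Socs3*, the gene carried by the vector, had levels of 458 to 1208 in WT-GFP and 438 to 1639 in APP-GFP astrocytes. With the SOCS3 vector its levels were 13296 to 37750, above every sample that received GFP alone. GFP- cells also had high *Socs3*, at 14611 ± 3831 (SD, n = 3). The reactivity marker *Gfap* averaged 12064 ± 1946 in WT-GFP astrocytes (SD, n = 7) and 16902 ± 9127 in those of APP-GFP mice (SD, n = 4), against 7791 ± 2945 with SOCS3 (SD, n = 5). Summed levels of 15 astrocyte markers were 1157% to 2140% of the mean of GFP- cells in the 16 GFP+ samples, and all 15 markers were read. Microglial markers summed to 5.13% to 59.1% of that mean and endothelial markers to 0.714% to 23.2%. In GFP- cells themselves, endothelial markers summed to levels of 179270 to 280080 and markers of mural cells of vessels to 126605 to 167954. Oligodendrocyte markers were 119% to 558% of the GFP- mean, with APP-GFP replicate 2 at 558% and the other GFP+ samples at up to 211%. Their sum in GFP- cells was only 2888 to 4013, and myelin had been depleted before the sort. In 4 libraries fewer than 20000 genes had a read, namely WT-GFP replicates 1, 2 and 3 and APP-GFP replicate 2, with 15575 to 19198 genes against 21602 to 26757 in the other GFP+ libraries. GFP- cells had 30807 to 31897.

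Positions are those of the deposited annotation on mm10. The adrenergic genes are *Adra1a* at chr14:66635250-66771168 on the plus strand, *Adra2a* at chr19:54045182-54048982 on the plus strand and *Adrb1* at chr19:56722199-56724862 on the plus strand. The glutamate receptor genes are *Grm3* at chr5:9485236-9725352 on the minus strand and *Grm5* at chr7:87584168-88135063 on the plus strand. The GABA-B subunit genes are *Gabbr1* at chr17:37045966-37075067 on the plus strand and *Gabbr2* at chr4:46663898-46991714 on the minus strand. The peptide receptor genes are *Ednrb* at chr14:103814615-103844476 on the minus strand and *Ntsr2* at chr12:16653470-16660236 on the plus strand. *Grm3* overlaps an unprocessed transcript model, Gm42455, on its own strand, and *Grm5* overlaps 6 such or small RNA models. Whether counting used the strand is not stated, so reads of these models cannot be told apart from those of the receptors.

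Promoter sequence of 7 members was taken from RefSeq (GRCm38.p6) as the 250 bases before the start of the RefSeq gene. Other annotations place some starts farther upstream. The window of *Ednrb* lies within the gene as given by the deposited annotation, that of *Adra2a* begins inside a GENCODE exon, and those of *Ntsr2* and *Gabbr2* reach a GENCODE exon after 162 and 91 bases. The windows of *Adrb1* and *Grm3* are shown whole because these genes were called higher in APP-SOCS3 than in APP-GFP astrocytes. Capitals mark TGACG, the core of the site bound by factors of the cyclic AMP response, in *Adrb1* (chr19:56721867-56722116, plus strand) and GGGCGG, the GC box bound by Sp factors, in *Grm3* (chr5:9725353-9725602, minus strand).
Adrb1: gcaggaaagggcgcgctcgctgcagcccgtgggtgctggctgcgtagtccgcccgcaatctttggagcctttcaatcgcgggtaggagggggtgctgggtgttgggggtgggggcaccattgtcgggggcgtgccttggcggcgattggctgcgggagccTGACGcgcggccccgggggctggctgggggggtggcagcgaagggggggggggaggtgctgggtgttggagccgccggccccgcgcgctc
Grm3: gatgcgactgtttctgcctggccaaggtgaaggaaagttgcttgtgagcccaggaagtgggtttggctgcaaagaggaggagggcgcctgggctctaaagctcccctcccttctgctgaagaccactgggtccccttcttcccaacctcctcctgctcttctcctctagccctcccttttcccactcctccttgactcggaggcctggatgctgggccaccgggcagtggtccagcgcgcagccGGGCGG
The TGACG of *Adrb1* began 90 bases and the GGGCGG of *Grm3* began 6 bases before the start. TGACG was searched on both strands and stood in the windows of 3 of the 7 members, and in 17.8% of all 32851 windows. Its other matches were in *Adra2a* (chr19:54045180-54045204, plus strand) where it lies inside a GENCODE exon, and *Ednrb* (chr14:103843890-103843914, minus strand), printed with the bases around them and TGACG in capitals.
Adra2a: acgtgggggcTGACGccggctgctc
Ednrb: ctgagtgcatTGACGtatgcccttg
The full palindrome TGACGTCA, which contains TGACG, stood in none of the 7 windows and in 1.55% of all windows. TTCNNNGAA, the palindrome bound by STAT factors, stood in the window of *Ntsr2* alone among the 7 members, and in 7.02% of all windows. It began 62 bases before the start (chr12:16653398-16653426, plus strand), inside a GENCODE exon, and is marked in capitals because SOCS3 acts on this pathway.
Ntsr2: gttttggaggTTCCCAGAAaggaggtggt
GGGCGG stood in 5 of the 7 windows (*Adra2a*, *Adrb1*, *Gabbr1*, *Gabbr2*, *Grm3*) and in 32.7% of all windows. CCAAT stood in *Adrb1* and *Ednrb* and in 33.8% of all windows, and TATAAA in *Adra2a* and in 12.4%. GC content was 55.2% in the window of *Ntsr2*, 56.8% in *Ednrb* and 62.4% to 80.8% in the other 5 members, against a median of 52.4% over all windows. These matches describe letters and are not sites of binding.

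**Figure D1:**
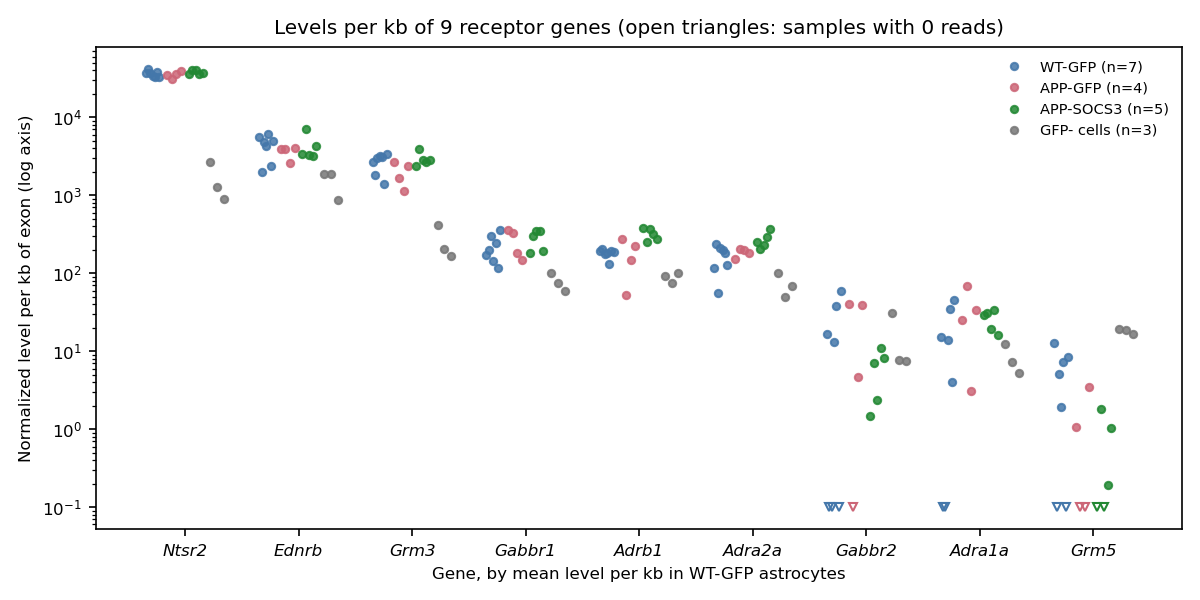
Levels of the 9 receptor genes per kb of exon on a log axis, with a point per sample, coloured by the 4 groups, and samples at 0 drawn as open triangles at the bottom. *Ntsr2*, *Ednrb* and *Grm3* are the top 3 genes in all 16 GFP+ samples, and *Ntsr2* falls to the range of *Ednrb* in GFP- cells.

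To compare genes with each other, levels were divided by the length of all annotated exons. In WT-GFP astrocytes the highest of the 9 was *Ntsr2*, the low affinity neurotensin receptor, with a level per kb of 36213 ± 3261 (SD, n = 7). *Ednrb*, the endothelin B receptor, followed with 4315 ± 1580 per kb and *Grm3*, encoding the glutamate receptor mGlu3, with 2658 ± 759 per kb. The ranges of *Ntsr2* and *Ednrb* did not overlap, with a ratio of means of 8.39, whereas those of *Ednrb* and *Grm3* did. These 3 genes kept this order in each of the 16 GFP+ samples.

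A middle group was formed by *Gabbr1*, *Adrb1* and *Adra2a*, with mean levels of 219, 182 and 162 per kb in WT-GFP astrocytes, and the neighbours in this group overlapped. *Grm3* stood 12.1 times above *Gabbr1*, with no overlap. The lowest genes were *Gabbr2*, *Adra1a* and *Grm5*, with 18.1, 16.2 and 5.07 per kb, and their ranges overlapped too. *Grm5* alone was the last of the 9 in 12 of the 16 GFP+ samples. It shared the last place, at 0, in WT-GFP replicates 2 and 6 and APP-GFP replicate 2. In GFP- cells *Ntsr2* with 1611 per kb and *Ednrb* with 1529 per kb overlapped, and *Grm5* with 18.3 per kb stood above *Gabbr2* with 15.3 and *Adra1a* with 8.23, again with overlap.

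**Figure D2:**
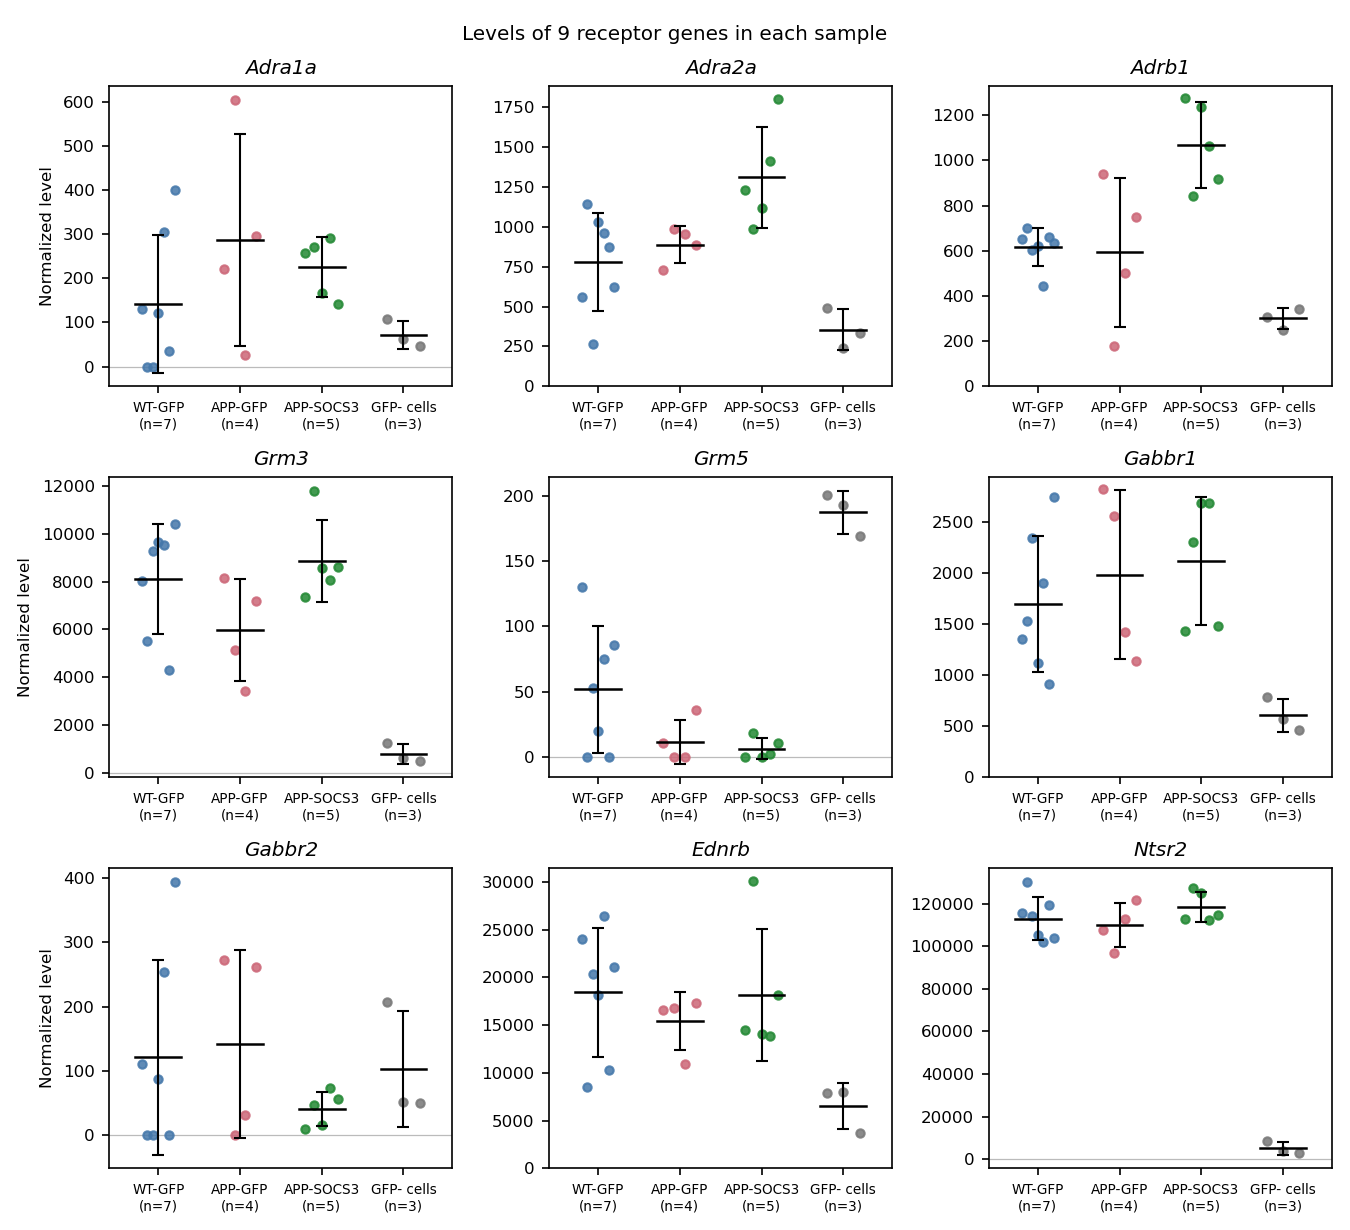
Normalized level of each receptor gene (1 panel per gene, linear axis from 0) in samples of the 3 astrocyte groups and of GFP- cells. Points are samples, bars means and error bars SD. *Ntsr2* varies little among the GFP+ samples, while *Adra1a* and *Gabbr2* reach from 0 to 604 and 395.

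Among the adrenergic receptors, *Adrb1* encodes the beta1 receptor that raises cyclic AMP. Its levels in WT-GFP astrocytes had a lowest value of 442, a median of 633 and a highest of 701. The 4 APP-GFP samples had 941, 178, 501 and 749.7 (replicates 1 to 4), and the 5 APP-SOCS3 samples had 1274, 839.9, 1236, 1065 and 918. GFP- cells had 308, 251 and 341. All APP-SOCS3 samples thus lay above all WT-GFP samples, the APP-GFP samples reached both below and above WT-GFP, and the GFP- cells lay below every GFP+ sample except APP-GFP replicate 2.

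*Adra2a* encodes the alpha2A receptor, which couples to Gi. Its levels in WT-GFP astrocytes had a lowest value of 268, a median of 873 and a highest of 1145. APP-GFP samples had 727, 985, 957 and 886, and APP-SOCS3 samples had 1231, 988, 1119, 1416 and 1805. The APP-GFP and APP-SOCS3 samples did not overlap, although the closest values were 985 and 988. GFP- cells had 493.3, 241 and 334, within reach of WT-GFP replicate 3 only.

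*Adra1a*, for the alpha1A receptor of the calcium-releasing class, was irregular. WT-GFP samples had 131, 0, 0, 121, 304, 35.2 and 400.4. APP-GFP samples had 222, 604, 26.7 and 296, and APP-SOCS3 samples had 256, 272, 166, 292 and 141. Only the APP-SOCS3 group had no sample under 100, and GFP- cells had 107, 62.8 and 46.0, inside the range of WT-GFP.

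Of the glutamate receptors, *Grm3* was read well in every sample. Its levels in WT-GFP astrocytes had a lowest value of 4306, a median of 9265 and a highest of 10422. APP-GFP samples had 8163, 5144, 3417 and 7192, and APP-SOCS3 samples had 7344, 11801, 8552, 8065 and 8617. The APP-GFP samples lay within the WT-GFP range apart from replicate 3, which was below it, and 1 of them, replicate 1, reached into the range of APP-SOCS3. GFP- cells had 1259, 620.1 and 507, far below every GFP+ sample.

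*Grm5*, for mGlu5, was near the limit of reading in astrocytes. WT-GFP samples had 130, 0, 53.0, 19.7, 75.3, 0 and 85.7. APP-GFP samples had 10.9, 0, 0 and 35.7, and APP-SOCS3 samples had 0, 18.6, 0, 2.0 and 10.5. It was at 0 in 6 of the 16 GFP+ samples, where a count of 0 allows up to 3 reads, a level of 2.27 to 3.53 depending on the sample and for counting error alone. GFP- cells had 200.4, 193 and 169, above all 16 GFP+ samples.

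GABA-B receptors need both subunits, *Gabbr1*, which binds GABA, and *Gabbr2*, which couples to the G protein and brings the pair to the surface. *Gabbr1* levels in WT-GFP astrocytes had a lowest value of 911, a median of 1534 and a highest of 2748. APP-GFP samples had 2825, 2559, 1425 and 1137, and APP-SOCS3 samples had 1433, 2303, 2690.3, 2687 and 1485. The 3 astrocyte groups overlapped widely, and all of them lay above GFP- cells, which had 786, 576 and 465.8.

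*Gabbr2* was far lower and patchy. WT-GFP samples had 111, 0, 0, 86.6, 253.5, 0 and 395, APP-GFP samples had 273, 0, 31.7 and 261.5, and APP-SOCS3 samples had 9.9, 47.4, 16, 72.5 and 55.4. GFP- cells had 207, 51.4 and 49.5. Every group overlapped every other. In the 4 WT-GFP samples with *Gabbr2* reads, the level of *Gabbr1* per kb was 5.99 to 11.1 times that of *Gabbr2*, with a median of 8.48. The same ratio was 3.74 to 38.8 in 3 APP-GFP samples, 23.1 to 145 in the 5 APP-SOCS3 samples and 3.27 to 9.65 in GFP- cells. No ratio was formed for the 3 WT-GFP samples and 1 APP-GFP sample with 0 *Gabbr2* reads, where it has no upper limit. These ranges therefore leave out the most extreme samples of WT-GFP and APP-GFP and do not compare the groups.

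**Figure D3:**
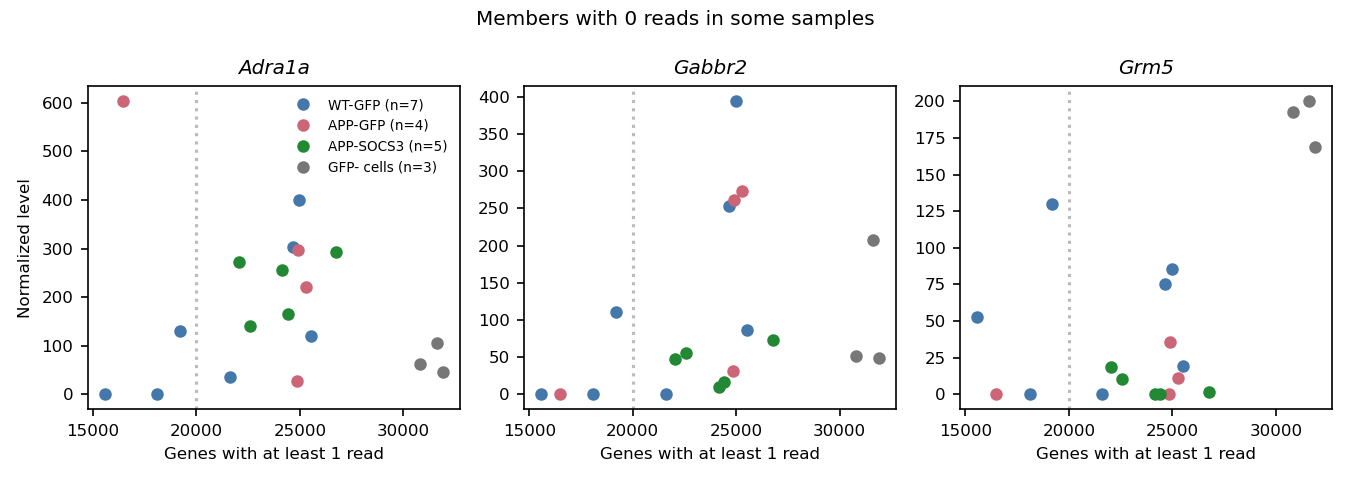
Levels of *Adra1a*, *Gabbr2* and *Grm5* (1 panel each) against the number of genes with at least 1 read in the library, with a point per sample coloured by group. The dotted line marks 20000 genes. The 4 libraries to its left hold 2 of the 2 zeros of *Adra1a*, 3 of the 4 zeros of *Gabbr2* and 2 of the 6 zeros of *Grm5* among GFP+ samples.

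The zeros of the 3 low genes were unevenly spread over libraries, as shown by the plot of low genes against detected genes. Both zeros of *Adra1a* (WT-GFP replicates 2 and 3) and 3 of 4 zeros of *Gabbr2* (these and APP-GFP replicate 2) were in the 4 libraries with under 20000 detected genes. Only 2 of 6 zeros of *Grm5* were. APP-GFP replicate 2 also had the highest *Adra1a*, 604, and the lowest *Adrb1*, 178, of all GFP+ samples. The part of library complexity in these values was not tested for single samples. Results of the members below are also given without these libraries where a call or a sign changed.

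Of the peptide receptors, *Ednrb* had WT-GFP levels with a lowest value of 8495, a median of 20386 and a highest of 26462. APP-GFP samples had 16587, 16797, 10942 and 17337.5, and APP-SOCS3 samples had 14452, 30122, 14077, 13818 and 18152. The 3 astrocyte groups overlapped, with 1 low sample in APP-GFP and 1 high sample in APP-SOCS3. GFP- cells had 7897, 7973 and 3695, below every GFP+ sample.

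*Ntsr2* was the steadiest of the 9. Its levels in WT-GFP astrocytes had a lowest value of 101794, a median of 114288 and a highest of 130373. APP-GFP samples had 107686, 96988, 112943 and 121678, and APP-SOCS3 samples had 112915, 127301, 125089.8, 112208 and 114866. Over the 16 GFP+ samples the highest level was 1.34 times the lowest, against 3.10 for *Gabbr1*, 3.45 for *Grm3*, 3.55 for *Ednrb*, 6.73 for *Adra2a* and 7.14 for *Adrb1*. *Ntsr2* alone took 0.398% to 0.522% of all reads on genes in GFP+ samples and 0.0127% to 0.0391% in GFP- cells, where its levels were 8342, 3955 and 2779.

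To ask where these receptors are read among sorted cells, GFP+ astrocytes of WT-GFP mice were compared with GFP- cells. *Ntsr2* and *Grm3* were the most enriched of the 9, with mean levels 22.5 and 10.2 times those of GFP- cells, and *Ednrb*, *Gabbr1*, *Adra2a* and *Adrb1* were 2.05 to 2.82 times higher. *Grm5* went the other way, with a mean in astrocytes of 27.7% of that in GFP- cells. By limma, with an unadjusted *p* up to 0.05 and a fold from 1.5 upwards as the call, 6 of 9 members were called, all higher, and 5 of them had an adjusted *p* under 0.05, as did 31.9% of all genes tested. Among 26709 genes tested, 42.8% were called, 9.25% higher and 33.5% lower. Levels in a mixture cannot tell apart fewer cells of a type from less RNA per cell.

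The log2 difference of *Ntsr2* was 4.64 ± 0.26 (SE, limma adjusted *p* = 5.13e-06) and that of *Grm3* 3.40 ± 0.34 (adjusted *p* = 2.68e-05). *Ednrb* differed by 1.48 ± 0.38 (adjusted *p* = 0.0140), *Gabbr1* by 1.42 ± 0.35 (adjusted *p* = 0.0108) and *Adrb1* by 1.03 ± 0.24 (adjusted *p* = 0.00852). In these 5 genes all 7 astrocyte samples were above all 3 GFP- samples, which 7.57% of genes tested also showed, and the exact permutation test gave *p* = 0.0167, the smallest it can give here. *Adra2a* differed by 1.06 ± 0.45 (unadjusted *p* = 0.0369, adjusted *p* = 0.0924), with 6 of 7 samples above all GFP- samples, and its call was lost when any 1 of 6 samples was left out (differences of 0.81 to 1.05).

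The median gene was lower in astrocytes by this fit, with a log2 difference of -1.31. Scaling to equal totals or equal upper quartiles gave -1.50 and -1.26, and the edgeR test, which also treats low counts in its own way, gave -0.37. Without the libraries under 20000 detected genes the median was -0.80 by limma. The split of called genes was 2471 higher to 8948 lower by limma and 3323 to 5265 by edgeR. The 6 called members were higher under both, and by 2.35 to 5.96 relative to the median gene. *Grm5* was lower in all 7 astrocyte samples, as were 27.2% of genes tested (exact permutation *p* = 0.0167, the smallest possible) but was not called, with a log2 difference of -3.29 and a 95% interval of -6.95 to 0.37 (limma adjusted *p* = 0.153). *Adra1a*, at -0.95 by limma and 1.27 by edgeR, and *Gabbr2*, at -2.09 and 0.53, changed direction with the test.

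**Figure D4:**
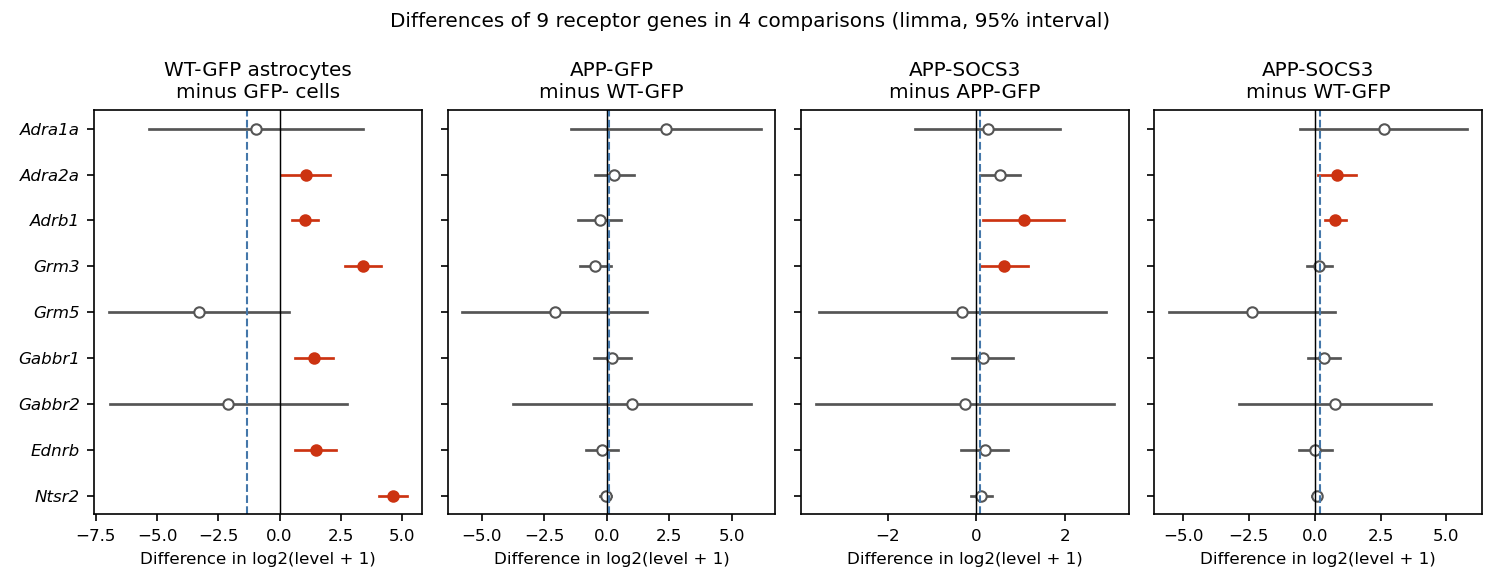
Log2 differences of the 9 members in the 4 comparisons (1 panel each), from limma on log2(level + 1). Points are estimates, bars 95% intervals, filled red points called members, and the dashed blue line the median of all genes tested. The called members are 6 in the sort, 0 in APP-GFP against WT-GFP, *Adrb1* and *Grm3* in APP-SOCS3 against APP-GFP, and *Adrb1* and *Adra2a* in APP-SOCS3 against WT-GFP.

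Other receptors of the same families were mostly lower in astrocytes than in GFP- cells. Of 14 listed, 11 were tested, 0 were higher and 9 were lower by limma (7 by edgeR), with a median log2 difference of -3.53. The metabotropic receptor genes *Grm2* and *Grm7* had means of 4.08 and 2.05 in astrocytes and 102 and 195 in GFP- cells. *Ednra*, for the endothelin A receptor, had 517.5 ± 204 (SD, n = 7) in astrocytes and 1138 ± 32.8 (SD, n = 3) in GFP- cells, and *Adra2c* had 41.1 ± 61.3 and 264 ± 188. *Adra1b* did not pass, with 85.4 ± 72.2 and 55.1 ± 2.99, and *Adra1d*, with means of 0.569 and 1.90, was too low to be tested.

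Of 7 genes for peptide ligands and their processing, 6 were tested and 4 were lower, with a median of -4.76. The list holds endothelins and neurotensin, the endothelin converting enzymes *Ece1* and *Ece2* and the sorting receptor *Sort1*. *Edn1*, for endothelin-1, had 225 ± 193 (SD, n = 7) in astrocytes and 4275 ± 1206 (SD, n = 3) in GFP- cells, *Edn3* had 93.6 ± 75.9 and 709 ± 222, and *Nts*, for neurotensin, had 5.21 ± 9.74 and 99.3 ± 67.4. By edgeR only *Edn1* was called lower. Endothelial markers, whose cells make endothelin-1, summed to 2.44% to 23.2% of the GFP- mean in WT-GFP astrocytes.

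Of 42 genes of G protein signalling, 6 were higher and 21 lower (7 and 13 by edgeR), with a median of -1.49 beside -1.31 for all genes. *Rgs20*, a brake on Gi signalling, had mean levels of 3151 ± 583 in astrocytes and 214 ± 89.5 in GFP- cells, with a log2 difference of 3.94 ± 0.27 (SE, limma adjusted *p* = 7.05e-06, 7 of 7 samples above). *Adcy2*, an adenylyl cyclase that makes cyclic AMP, had 7631 ± 1739.8 and 1108 ± 307, a log2 difference of 2.79 ± 0.23 (SE, limma adjusted *p* = 9.51e-06, 7 of 7 samples above). *Rgs4*, another such brake, had 1187 ± 798 against 17579.6 in GFP- cells, and *Kctd12*, an auxiliary subunit of GABA-B receptors, 420.3 ± 616 against 4619.9. The mGlu5 scaffolds *Homer1*, *Homer2* and *Homer3*, with means of 38.6, 123 and 503.5 in astrocytes and 70.8, 75.8 and 334 in GFP- cells, were not called, nor was the calcium store channel *Itpr2*, with 1313 ± 548 in astrocytes and 1164 ± 141 in GFP- cells.

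Among 47 genes of other transmitter receptors, 33 were tested, 2 were higher and 22 lower, with a median of -3.82. Several of the lower genes were at 0 in all 7 WT-GFP astrocyte samples. Among them were *Hrh2*, a histamine receptor, with 148 ± 6.90 in GFP- cells, the dopamine receptor gene *Drd5* with 58.7 ± 22.5, and the serotonin receptor genes *Htr2a* with 45.5 ± 17.3 and *Htr5a* with 48.8 ± 21.9 (SD, n = 3). No fold change was given for them.

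To ask whether the APP/PS1dE9 genotype changed the receptors of astrocytes, APP-GFP was compared with WT-GFP. None of the 9 members was called by limma, edgeR or DESeq2, and 0 had an unadjusted limma *p* under 0.05, against 2.23% of 22969 genes called by limma and 2.87% by edgeR. *Ntsr2* had the narrowest interval, a log2 difference of -0.04 (95% interval -0.25 to 0.17), followed by *Grm3* at -0.45 (-1.07 to 0.16) and *Ednrb* at -0.18 (-0.82 to 0.47). *Gabbr1* differed by 0.22 (-0.53 to 0.96), *Adra2a* by 0.31 (-0.48 to 1.10) and *Adrb1* by -0.28 (-1.13 to 0.56). For *Ntsr2*, a 1.5-fold difference lay outside the interval, and for the other 5 it did not.

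The 3 low genes could not be read at this precision. *Adra1a* differed by 2.36 (95% interval -1.44 to 6.16), *Gabbr2* by 1.02 (-3.73 to 5.78) and *Grm5* by -2.07 (-5.77 to 1.63). All 4 APP-GFP samples were below the WT-GFP median of *Grm3*, 9265, and its exact permutation *p* was 0.20. Of the signalling lists, 0 of 7 other receptors of the families, 0 of 5 genes for ligands and their processing and 0 of 40 genes of G protein signalling were called. *Cnr1*, the cannabinoid receptor gene, was the 1 called gene of 17 other transmitter receptors, with a log2 difference of -2.69 ± 1.21 (SE, limma adjusted *p* = 0.999), from means of 270.5 ± 141 in wild type (SD, n = 7) to 110.5 ± 107 in APP-GFP astrocytes (SD, n = 4), and it was not called by edgeR.

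To ask what SOCS3 changed in APP astrocytes, APP-SOCS3 was compared with APP-GFP, the same APP-GFP samples that served in the genotype comparison. *Adrb1* was 1.80 times, *Grm3* 1.48 times and *Adra2a* 1.48 times higher in mean level, while *Ntsr2*, *Ednrb* and *Gabbr1* differed little. Means of *Gabbr2*, *Adra1a* and *Grm5* were 28.4%, 78.4% and 53.4% of those in APP-GFP, with groups that overlapped. By limma, *Adrb1* and *Grm3* were called, 2 of 9 members, both higher, against 5.7% of 22844 genes called in either direction and 2.33% higher. No member had an adjusted *p* under 0.05, and 0.00438% of genes tested did. *Adrb1* differed by 1.07 ± 0.41 on the log2 scale (SE, limma adjusted *p* = 0.706, exact permutation *p* = 0.0476), with 3 of 5 APP-SOCS3 samples above all APP-GFP samples. *Grm3* differed by 0.63 ± 0.24 (SE, limma adjusted *p* = 0.696, exact permutation *p* = 0.0476), also with 3 of 5 samples above.

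*Adra2a* differed by 0.54 ± 0.20 (SE, limma adjusted *p* = 0.690, unadjusted *p* = 0.0228). All 5 APP-SOCS3 samples were above all 4 APP-GFP samples, which 0.924% of genes tested showed, and the exact permutation *p* was 0.0159, the smallest possible. It missed the call because its fold change was under 1.5. *Ntsr2* differed by 0.11 (95% interval -0.12 to 0.35), *Ednrb* by 0.19 (-0.34 to 0.71) and *Gabbr1* by 0.14 (-0.54 to 0.83).

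Markers of other cells moved with these differences. Summed microglial markers were 10.2%, 46.7%, 59.1% and 16.2% of the GFP- mean in APP-GFP replicates 1 to 4 and 5.13% to 9.98% in APP-SOCS3 astrocytes, and summed mural markers were 2.87% to 14.3% and 1.64% to 2.75%, without overlap in either list. APP-GFP replicates 2 and 3, highest in both lists, were also the lowest of the group in *Adrb1* and *Grm3*. In *Adra2a* they were the highest of the group, and the part of these cells in the 3 differences was not tested.

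Which members were called depended on the test and on several samples, among them APP-GFP replicate 2, a library with 16471 detected genes. Without it *Adrb1* differed by 0.57 (limma adjusted *p* = 0.806), just under a fold of 1.5, and *Grm3* by 0.58 (limma adjusted *p* = 0.836), and both calls were lost. *Adra2a* was then called at 0.59 (limma adjusted *p* = 0.780) and *Gabbr2* was called lower at -2.02 (limma adjusted *p* = 0.806). *Adrb1* was also not called without APP-SOCS3 replicate 1 (1.00) or replicate 3 (1.01) or by edgeR (0.86), nor *Grm3* without APP-GFP replicate 3 (0.38) or APP-SOCS3 replicate 2 (0.52) or by DESeq2 (0.58). The direction of *Adrb1*, *Grm3* and *Adra2a* held in all 21 alternatives run. *Gabbr2* with every library differed by -0.26 by limma (95% interval -3.62 to 3.10) and -1.80 by edgeR.

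Some other genes of the pathways were called in this comparison, none with an adjusted *p* under 0.05. *Edn1* fell from 309 ± 234.5 (SD, n = 4) to 60.2 ± 36.8 (SD, n = 5), a log2 difference of -2.23 ± 0.78 (SE, limma adjusted *p* = 0.647), and *Edn3* by -4.64 ± 1.40 (SE, limma adjusted *p* = 0.640). *Rgs4* differed by -1.64 ± 0.53 (SE, limma adjusted *p* = 0.641) and *Adcy4*, an adenylyl cyclase known from endothelium, by -3.62 ± 1.25 (SE, limma adjusted *p* = 0.647). *Adcy4* had levels of 139 to 561 in APP-GFP samples and 0 to 77.0 with SOCS3. Summed endothelial markers were highest in APP-GFP replicate 2, at 19.9% of the GFP- mean, and were 0.714% to 3.81% with SOCS3. The groups overlapped in this sum, because APP-GFP replicate 4 lay within the range of APP-SOCS3. The part of endothelial cells in these differences was not tested.

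*Ntsr1*, the high affinity neurotensin receptor gene, was called higher in APP-SOCS3 astrocytes. It had reads in all 5 samples, at 2.21 to 90.0 with a mean of 48.9. The lowest of these, 2.21, lies under the level of 2.27 to 3.53 that a count of 0 allows. *Ntsr1* was at 0 in 3 of 4 APP-GFP samples, 6 of 7 WT-GFP samples and 3 of 3 samples of GFP- cells. Its log2 difference was 3.87 ± 1.35 (SE, limma adjusted *p* = 0.647) against APP-GFP, a fitted value that depends on the pseudocount. *Cnr1* was also called higher, by 2.91 ± 1.31 (SE, limma adjusted *p* = 0.793), with 280.4 ± 52.2 (SD, n = 5) in APP-SOCS3 astrocytes. Over the lists, 1 of 7 other family receptors was higher and 1 lower, 2 of 5 genes for ligands and their processing were lower, 2 of 39 genes of G protein signalling were lower, and 1 of 16 other receptors was higher. By edgeR, *Edn1*, *Rgs4* and *Adcy4* were called as well, whereas *Ntsr1*, *Edn3* and *Cnr1* were not.

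To ask how APP-SOCS3 astrocytes stood against wild type, they were compared with WT-GFP. *Adrb1* and *Adra2a* were called, 2 of 9 members, both higher, against 5.21% of 22958 genes called and 3.19% higher. *Adrb1* had a mean of 1067 ± 190.5 (SD, n = 5) against 616 ± 82.9 (SD, n = 7), a ratio of 1.73, and *Adra2a* 1312 ± 317 against 781 ± 309, a ratio of 1.68. Both vector and genotype differ between these groups, so their parts cannot be told apart. This comparison shares its APP-SOCS3 samples with the one before.

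The log2 difference of *Adrb1* was 0.79 ± 0.19 (SE, limma adjusted *p* = 0.239, unadjusted *p* = 0.000988), or 0.60 above the median gene, which was itself 0.19 higher. All 5 APP-SOCS3 samples were above all 7 WT-GFP samples, which 0.287% of genes tested showed, and the exact permutation *p* was 0.00253, the smallest possible. Its adjusted *p* was 0.297 by edgeR and 0.00187 by DESeq2. It was called in 23 of 24 alternatives, all but Benjamini-Hochberg adjustment, with differences of 0.71 to 0.87.

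*Adra2a* differed by 0.85 ± 0.33 (SE, limma adjusted *p* = 0.782, exact permutation *p* = 0.0126), with 3 of 5 APP-SOCS3 samples above all WT-GFP samples. Its call was lost without APP-SOCS3 replicate 5, at 0.72, and without the libraries under 20000 detected genes, at 0.58. The remaining members were not called. *Ntsr2* differed by 0.07 (95% interval -0.11 to 0.25), so that a 1.5-fold difference lay outside the interval, *Grm3* by 0.17, *Gabbr1* by 0.36 and *Ednrb* by 0.01. Of the lists, *Ntsr1* was higher by 4.32 ± 1.10 (SE, limma adjusted *p* = 0.307) and *Edn3* lower by -3.78 ± 1.69 (SE, limma adjusted *p* = 0.873). *Edn3* was at 0 in 4 of 5 APP-SOCS3 samples, so its fitted value depends on the pseudocount too, and edgeR called *Ntsr1* but not *Edn3*. Of 39 genes of G protein signalling, 0 were called by limma and 3, all lower, by edgeR. Summed microglial markers were 7.12% to 26.4% of the GFP- mean in WT-GFP astrocytes, beside 5.13% to 9.98% with SOCS3, and their part in the differences of *Adrb1* and *Adra2a* was not tested.

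The balance of called genes over the whole table depended on the test in this comparison, at 733 higher to 464 lower by limma and 441 to 762 by edgeR. In APP-GFP against WT-GFP it was 382 to 131 by limma, 412 to 247 by edgeR and 205 to 325 by DESeq2. Rescaling the levels kept the balance, with 703 to 451 and 369 to 120 at equal totals. Leaving out the libraries under 20000 detected genes turned it by limma. It was then 410 higher to 1239 lower in APP-SOCS3 against WT-GFP and 319 to 414 in APP-GFP against WT-GFP. *Adrb1* and *Adra2a* were higher in APP-SOCS3 than in WT-GFP astrocytes by limma, edgeR and DESeq2 alike.

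Genes with patterns most like those of the members across the 16 GFP+ samples were listed by Pearson correlation of log2(level + 1) over 10661 genes. The samples share groups, and low genes share the libraries in which they are at 0. *Ednrb* was most like *Hnrnpk* (r = 0.950) and *Acss2* (r = 0.944), *Grm3* like *Tmem62* (0.902) and *Slitrk2* (0.897), and *Ntsr2* like *Shisa4* (0.847) and *Gm5617* (0.846). *Adrb1* was most like *Ppp1r3g* (0.874) and *Apoc3* (0.861), *Adra2a* like *Aplf* (0.900) and *Jmjd4* (0.894), and *Gabbr1* like *Rab6b* (0.787) and *Fads2* (0.775). *Adra1a* was most like *Camsap2* (0.967) and *Pigg* (0.964), and *Gabbr2* like *Syde2* (0.946) and an entry for *C4bp-ps1* and *Pfkfb2* (0.937). *Grm5* was under the minimum mean level of 100 set for this list.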

How the data were processed

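RNAseq values of 19 samples were used, grouped by the labels, whose replicate numbers were kept. The authors amplified full-length cDNA from small amounts of RNA, mapped reads to mm10 with STAR 2.4.0, counted them on constitutive regions of FAST DB genes and normalized with DESeq2. What the authors deposited is a signal for each gene, a read count divided by the size factor of its sample. Whole reads were recovered for 100% of values (tolerance 0.01), and libraries held 19331876 to 32621917 reads. Strandedness of counting and handling of reads matching several genes are not given in the sources used here.

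From these levels, log2(level + 1) was tested with limma 3.58.1 (mean-variance trend, R 4.3.3) on the samples of both groups of a comparison, over genes with a mean of at least 10 in either group. A gene counted as called with an unadjusted *p* up to 0.05 and a fold from 1.5 upwards, the thresholds of the study, and Benjamini-Hochberg adjusted *p* values over all genes tested stand beside them. For single members a 2-sided exact permutation test of mean log2 levels was run as well, unadjusted. edgeR 4.0.16 (recovered reads) and DESeq2 1.42.0 were alternatives. Other alternatives were pseudocounts, minimum levels, scalings, 1 fit of all samples, the replicate number as a block and leaving out each sample. Leaving out libraries under 20000 detected genes was chosen after seeing the data. Tests were checked on simulated reads.

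The members and gene lists were chosen with earlier results of these data known. Named genes were the 9 members, a fixed set of pathway genes and, per comparison, up to 6 pathway genes with the smallest *p* among called genes without overlap. *Cnr1* was named after its values were seen. Levels between genes were divided by the length of all exons of GENCODE M21, since lengths of the constitutive regions were not used here. Some genes are not reported here.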

Additional observations from a re-analysis of the deposited data

Results flagged for a closer look

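In 4 of 27 groups of a member, 1 sample stood farther from the others than Dixon's 95% limit allows, and chance alone flags about 1 in 20 such groups. *Adrb1* was lowest in WT-GFP replicate 5, at a level of 442, with the next sample at 604. *Grm3* was highest in APP-SOCS3 replicate 2, at 11801, with the next at 8617, and without this sample its call against APP-GFP was lost (log2 difference 0.52, limma adjusted *p* = 0.745). *Ednrb* was highest in the same replicate, at 30122 against 18152 for the next, and without it the difference from APP-GFP was -0.013. *Ednrb* was lowest in APP-GFP replicate 3, at 10942, with the next at 16587.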

How the results depend on the processing

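The calls of *Ntsr2*, *Grm3*, *Ednrb*, *Gabbr1* and *Adrb1* in the sort held in each of 22 alternatives. The number of members called in the sort was 5 to 7 when 1 sample was left out. In APP-GFP against WT-GFP it was 0 to 1 when 1 sample was left out (*Grm3*, -0.60, without WT-GFP replicate 6). With the replicate number as a block it was 1 (*Adra1a*, 4.02). In APP-SOCS3 against APP-GFP, 2 members were called, and 1 with all 19 samples in one fit, with DESeq2 or with the replicate block, 0 after Benjamini-Hochberg adjustment and 1 to 2 without 1 sample. By edgeR the 2 were *Grm3* and *Adra2a*, in place of *Adrb1* and *Grm3* by limma. In APP-SOCS3 against WT-GFP, 2 were called, 1 without the libraries under 20000 detected genes, 0 after Benjamini-Hochberg adjustment and 1 to 3 without 1 sample. DESeq2 called *Grm5* lower there besides *Adrb1* and *Adra2a*. Samples with the same replicate number did not deviate together (correlations of -0.18 to 0.24), so the block gives no pairing.

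Called pathway genes were 64 in the sort (51 to 66 without 1 sample). In APP-GFP against WT-GFP there was 1, with 0 at a pseudocount of 0.1, a minimum level of 100, the replicate block or Benjamini-Hochberg adjustment, 2 in one fit or with DESeq2, 3 with edgeR, and 0 to 4 without 1 sample. In APP-SOCS3 against APP-GFP there were 7, with 4 at a minimum level of 100, 0 after adjustment and 6 to 10 without 1 sample. In APP-SOCS3 against WT-GFP there were 4, with 1 at a minimum level of 100, 9 with edgeR, 8 with DESeq2, 12 without the libraries under 20000 detected genes, 0 after adjustment and 2 to 7 without 1 sample. Over all genes tested, limma called 42.8%, 2.23%, 5.7% and 5.21% in these comparisons, in this order. The share called within single pathway lists, some with only 5 genes tested, was 64.3% to 81.8%, 0% to 5.88%, 5.13% to 40% and 0% to 28.6%.

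Log2 differences that changed sign belonged to values that were not called, and the cause was not tested. In the sort, *Adra1a* was 1.27 with edgeR, 1.02 with DESeq2 and 1.15 without the libraries under 20000 detected genes, and *Gabbr2* was 0.53 with edgeR and 0.28 with DESeq2. In APP-GFP against WT-GFP, leaving out those libraries gave -0.32 for *Adra1a*, -0.013 for *Adra2a*, 0.28 for *Adrb1* and 0.085 for *Ntsr2*, and leaving out 1 sample gave -0.59 to 0.21 for *Adrb1* and -0.092 to 0.017 for *Ntsr2*. In APP-SOCS3 against APP-GFP, *Gabbr2* was 0.53 at a pseudocount of 0.1, and *Adra1a* was -0.30 with edgeR and -0.33 with DESeq2. Leaving out 1 sample there gave -0.65 to 0.83 for *Adra1a*, -0.092 to 0.35 for *Gabbr1*, -2.02 to 0.68 for *Gabbr2*, -1.04 to 0.16 for *Grm5* and -0.013 to 0.27 for *Ednrb*. In APP-SOCS3 against WT-GFP, *Gabbr2* was -0.29 at a pseudocount of 10, -1.58 with edgeR and with DESeq2 and -0.74 without those libraries, and *Ednrb* was -0.023 with DESeq2, -0.075 with the replicate block, -0.056 without those libraries and -0.19 to 0.12 without 1 sample. Samples of *Adra1a*, *Gabbr2* and *Grm5* at 0 allow up to 3 reads, so that absence is not shown.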

Other observations

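Among receptors outside the families of the members, 2 stood with the members in the sort, and they are given here after their values were seen. *Hrh1*, the histamine H1 receptor gene, had mean levels of 3905 ± 1329.7 in WT-GFP astrocytes (SD, n = 7) and 502 ± 266 in the GFP- cells (SD, n = 3), with a log2 difference of 3.09 ± 0.41 (SE, limma adjusted *p* = 0.000203), with 7 of 7 astrocyte samples above. In APP-GFP astrocytes it ranged from 1.90 in replicate 2 to 4390.4 over 4 samples, and in APP-SOCS3 astrocytes from 2927 to 6296 over 5. *Htr6*, for a serotonin receptor, had 5.36 ± 3.33 in GFP- cells (SD, n = 3). Its levels in astrocytes were 110.5 ± 34.4 in wild type (SD, n = 7), 76.1 ± 20.1 in APP-GFP mice (SD, n = 4) and 133 ± 52.4 with SOCS3 (SD, n = 5). *Gnao1*, for the G protein subunit Go, was also higher in the sort, at 1971 ± 420.0 against 338 ± 149, with a log2 difference of 2.59 ± 0.29 (SE, limma adjusted *p* = 5.7e-05).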
